A study of Homo sapiens with 16 samples.

Results

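The transcriptomes of human A549 cells, an epithelial line established from a lung adenocarcinoma, were compared after 48 h with 5G6 or with 7F8, 2 code-named compounds that the labels list at 4 µM and call inhibitors. The comparison holds 4 libraries of the 16 in the series, 2 with 5G6 and 2 with 7F8, and they were taken by the compound and the time in their labels. Every library came from cells that overexpress CD63 fused to the luciferase Nluc, a reporter for the exosome protein CD63, so the DMSO cells carry it too. DMSO, the vehicle, is labelled with the same 4 µM, and its 2 libraries at 48 h serve here as a reference level. The 4 libraries of 5G6 and 7F8 at 4 h give the same contrast at the earlier time. The series describes its 2 libraries per group as biological replicates of a single cell line, and the sources used here do not say whether the reporter cells are a clone. The series title names exosome release and the AMPK and SREBP pathway.

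Several regulators with well-known target genes frame what follows. SREBPs are membrane-bound transcription factors that, once processed, turn on the genes of sterol and fatty acid synthesis, and AMPK is an energy-sensing kinase that restrains lipid synthesis. ATF4 is the transcription factor through which amino acid shortage and other stresses raise amino acid synthesis genes, and NF-kB drives chemokines, cytokines and other inflammatory genes.

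Expression was measured as TPM, the share of transcripts that a gene holds scaled to a common total, from polyA RNA. In the 4 libraries, 6.41 to 7.59 gigabases of aligned sequence lay behind the values (6.10 to 8.86 over all 16), and 14057 to 14909 genes reached 1 TPM. Of the 11 markers listed for A549, 10 were at or above 1 TPM in the 4 libraries, and CDKN2A, which A549 has lost, was listed at 0. The summed TPM of these markers was 18877 and 20928 with 5G6, 13020 and 14460 with 7F8, and 26577 and 29916 with DMSO. Markers of other cells were scarce: PTPRC reached 0.0211 TPM, CD3E, CDH5, COL1A2 and DCN were listed at 0, while CD14 lay between 3.54 and 6.60 TPM and COL1A1 between 3.46 and 18.7 TPM. In bulk RNA, fewer cells of a kind cannot be told apart from less RNA per cell, and the part of these markers in the results was not tested. A listed 0 may not mean absent RNA in these tables, since every library gives 0 for MALAT1 and for NEAT1, noncoding RNAs that are abundant in most cell lines.

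The genes called higher with 5G6 than with 7F8 included TRIB3, ATF4 and ASNS of the stress response, LPIN1 and ELOVL6 of lipid synthesis and the epithelial genes KRT19 and CEACAM6, and those called lower were led by EFNA1 and G0S2. Of 15958 genes tested, 46 (0.288%) differed at an adjusted p below 0.05 in limma with Benjamini-Hochberg adjustment, and these are the genes called below. They comprised 41 genes higher with 5G6 (0.257%) and 5 lower (0.0313%), with differences of 1.06 to 4.20 on the log2(TPM + 1) scale and adjusted p-values of 0.033 to 0.048. At an adjusted p below 0.1 there were 125 genes. Both libraries of 5G6 were above both of 7F8 at 4117 genes (25.8%) and below both at 1658 (10.4%), and the median difference over all genes was 0.10. These shares depend on the scaling: with median-of-ratios scaling, which sets the middle of all genes level between libraries, both 5G6 libraries were above at 2935 genes (18.4%) and below at 3030 (19.0%), and the median was −0.01. Under that scaling 17 of the 46 genes were called, namely TRIB3, ASNS, RBCK1, LPIN1, KRT19, CEACAM6, CA9, HAVCR1, APOH, GACAT2, DBNDD2, SBK2, ECM1, FIBCD1, UPK1A-AS1, G0S2 and NFE2L3, and the adjusted p in limma of the other 29 ran from 0.051 to 0.18.

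**Figure D1:**
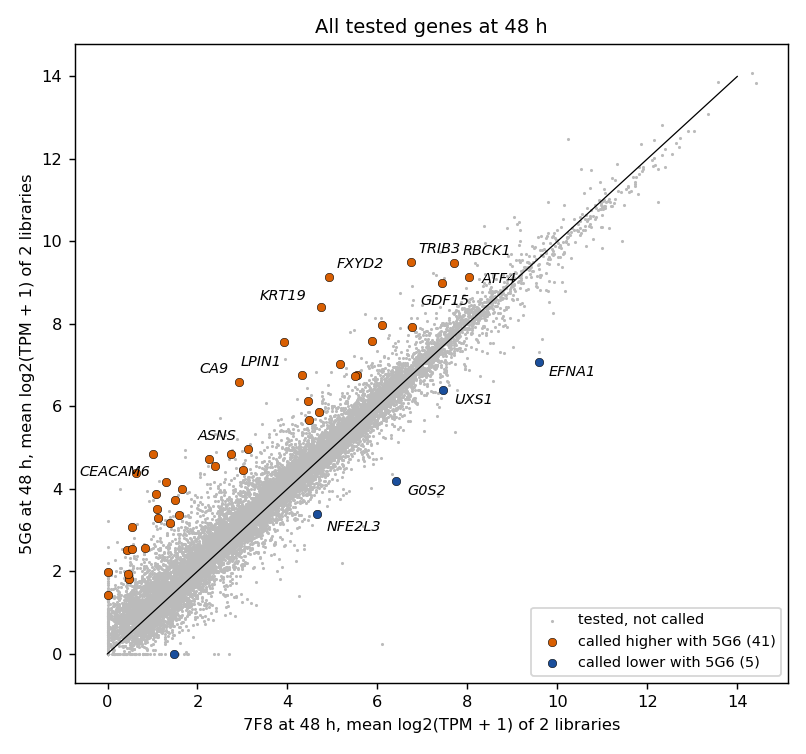
Each point is 1 of the 15958 tested genes, plotted by its mean log2(TPM + 1) over the 2 libraries of 7F8 at 48 h (x axis) and over the 2 libraries of 5G6 at 48 h (y axis), and the line marks equal levels. The 41 genes called higher with 5G6 (orange) lie above the line at low and at high levels, and the 5 called lower (blue) lie below it.

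The position of DMSO sorted the 41 higher genes. The DMSO mean lay between the means of both compounds for 28 of them, below both for 9 and above both for 4. Against DMSO, limma called 4.06% of all genes for 5G6 (1.95% higher, 2.11% lower) and 8.79% for 7F8 (2.29% higher, 6.5% lower). Of the 41 genes, 19 were called higher with 5G6 than with DMSO and 13 were called lower with 7F8 than with DMSO. Of the 5 lower genes, all were called higher with 7F8 than with DMSO. These tests share their compound libraries with the main comparison, so their values are set side by side below and are not separate support.

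Stress-response genes were among the most abundant of the called genes. TRIB3, a pseudokinase that ATF4 and CHOP induce and that binds AKT, stood at 753 and 706 TPM with 5G6, 128 and 88.6 TPM with 7F8 and 85.2 and 118 TPM with DMSO; the gene spans chromosome 20, 380629 to 397559, + strand, in GRCh38. Both libraries of 5G6 lay far above the other 4, which overlapped among themselves. The log2 difference between 5G6 and 7F8 was 2.76 ± 0.41 (SE), with an adjusted p of 0.033 in limma, while 7F8 and DMSO differed by 0.09 (adjusted p = 0.93). ATF4 itself measured 556 and 563 TPM with 5G6, 258 and 265 TPM with 7F8 and 415 and 364 TPM with DMSO. Its replicates were close together, and the DMSO libraries fell in the gap between both compounds. It was higher with 5G6 by 1.10 ± 0.19 (SE) log2 units (limma adjusted p = 0.043). GDF15, a secreted stress cytokine, was at 488 and 525 TPM with 5G6, 180.4 and 164 TPM with 7F8 and 114 and 149.8 TPM with DMSO. The 5G6 libraries were again apart from all others, with a log2 difference of 1.55 ± 0.24 (SE) (limma adjusted p = 0.033).

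Genes of amino acid synthesis showed another order, with 7F8 as the compound away from DMSO. ASNS, which makes asparagine and is a classical ATF4 target, measured 28.6 and 32.3 TPM with 5G6, 5.97 and 10.02 TPM with 7F8 and 39.8 and 40.2 TPM with DMSO. The 7F8 libraries were lowest and DMSO was highest, with no overlap between any of the groups. The difference between 5G6 and 7F8 was 1.84 ± 0.25 (SE) log2 units (limma adjusted p = 0.033). Against DMSO, limma gave -0.39 for 5G6 (adjusted p = 0.45) and -2.23 for 7F8 (adjusted p = 0.0019). PHGDH, which opens serine synthesis from a glycolytic intermediate, stood at 24.1 and 31.4 TPM with 5G6, 3.24 and 9.56 TPM with 7F8 and 42.9 and 42.3 TPM with DMSO. Its order over the groups was that of ASNS, and 5G6 exceeded 7F8 by 2.09 ± 0.38 (SE) log2 units (limma adjusted p = 0.048). Of the 26 tested genes of the ATF4 and CHOP stress response, 4 were called higher (TRIB3, ASNS, GDF15 and ATF4) and none lower, beside 0.288% of all genes. With median-of-ratios scaling TRIB3 and ASNS were still called, and the limma adjusted p was 0.18 for ATF4 and 0.087 for GDF15. The list's median difference was 0.55 against 0.10 over all genes. Both 5G6 libraries were above both of 7F8 for 13 of the 26, beside 25.8% of all genes. Among the 16 genes of serine and one-carbon synthesis, PHGDH and ASNS were called higher, beside 0.288% of all genes. The median difference of these 16 genes was 0.74 (0.40 without 7F8 replicate 1). DDIT3, which encodes CHOP, was not called: it measured 134 and 99.8 TPM with 5G6 and 65.1 and 35.7 TPM with 7F8, a difference of 1.24 with a 95% interval of -0.40 to 2.88.

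The promoter of ASNS is shown because this gene and other members of its list are known targets of ATF4 dimers that bind composite C/EBP-ATF elements. The sequence is RefSeq's for GRCh38.p14, chr7:97872359-97872658 on the minus strand, from 250 bases before to 50 after the annotated start, 5′ to 3′, and is 1 of 2 entries for the gene. Capitals mark the only match to TGATGNAA, which begins 68 bases before the start.
ASNS: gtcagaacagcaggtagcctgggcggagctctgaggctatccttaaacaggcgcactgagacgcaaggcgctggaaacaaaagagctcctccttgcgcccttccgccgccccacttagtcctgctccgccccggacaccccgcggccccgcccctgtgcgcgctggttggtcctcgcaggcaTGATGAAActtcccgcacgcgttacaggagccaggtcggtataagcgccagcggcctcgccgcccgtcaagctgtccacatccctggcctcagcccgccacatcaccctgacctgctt
Searched on both strands, these letters were found in 9 of the 24 list members with a promoter entry (37.5%) and in 4.46% of the 27305 symbols in the table. A match describes the sequence and is not evidence of binding in these cells.

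RBCK1, a subunit of the linear ubiquitin ligase complex, lies 10491 bases from TRIB3 on the same strand of chromosome 20. It measured 675 and 760.4 TPM with 5G6, 227 and 188 TPM with 7F8 and 174 and 178 TPM with DMSO. As for TRIB3, only the 5G6 libraries stood apart, and 7F8 and DMSO were close. The difference was 1.79 ± 0.28 (SE) log2 units (limma adjusted p = 0.033). No other 2 called genes lay this close together.

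Lipid synthesis genes formed another group of calls. LPIN1 (lipin 1), a phosphatidate phosphatase that makes diacylglycerol, was at 92.6 and 123 TPM with 5G6, 22.8 and 16.04 TPM with 7F8 and 11.9 and 24.1 TPM with DMSO. The gene spans chromosome 2, 11677544 to 11827409, + strand, in GRCh38. Every 5G6 library exceeded every other library, whereas 7F8 and DMSO overlapped. The log2 difference was 2.42 ± 0.36 (SE) (limma adjusted p = 0.033). ELOVL6, the elongase that extends palmitate, stood at 59.01 and 80.1 TPM with 5G6, 25.6 and 17.05 TPM with 7F8 and 20.6 and 27.98 TPM with DMSO, a difference of 1.67 ± 0.29 (SE) (limma adjusted p = 0.043). PNPLA3, a lipid droplet protein and SREBP target, was less abundant at 10.4 and 14.6 TPM with 5G6, 2.54 and 1.24 TPM with 7F8 and 1.20 and 2.95 TPM with DMSO, with a difference of 2.25 ± 0.40 (SE) (limma adjusted p = 0.043). All 3 genes thus put 5G6 above DMSO and 7F8 within or near its range. Of the 21 tested genes of fatty acid synthesis and desaturation, ELOVL6 and PNPLA3 were called higher and none lower, beside 0.288% of all genes. Neither of these 2 was called with median-of-ratios scaling (limma adjusted p = 0.071 and 0.052). Both 5G6 libraries exceeded both of 7F8 for 15 of the 21, beside 25.8% of all genes, and the list's median was 0.78.

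The abundant enzymes of that list were not called. SCD, which puts the double bond into stearate and palmitate, measured 3624 and 8984 TPM with 5G6, 1264 and 1139 TPM with 7F8 and 523 and 1063 TPM with DMSO. The groups of 5G6 and 7F8 did not overlap, yet the 5G6 libraries were themselves far apart. The difference of 2.25 ± 0.72 (SE) came with a 95% interval of 0.67 to 3.83 and a limma adjusted p of 0.28. FASN, the fatty acid synthase, stood at 446 and 810.2 TPM with 5G6, 181 and 124 TPM with 7F8 and 129 and 154 TPM with DMSO, a difference of 2.00 ± 0.48 (SE) (limma adjusted p = 0.13). SREBF1, which encodes SREBP-1, differed by 0.51 with an interval of -0.50 to 1.53, and SREBF2 by 0.68 with an interval of -0.12 to 1.48; neither was called.

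The SCD promoter is shown because SCD is an abundant gene of this group and its window holds the CCAAT box, the site of NF-Y, a factor that works beside SREBP at lipid genes. It is RefSeq's GRCh38.p14 sequence of chr10:100346983-100347282 on the plus strand, 5′ to 3′, over the same window. Capitals mark both matches to CCAAT, which begin 229 and 186 bases before the start.
SCD: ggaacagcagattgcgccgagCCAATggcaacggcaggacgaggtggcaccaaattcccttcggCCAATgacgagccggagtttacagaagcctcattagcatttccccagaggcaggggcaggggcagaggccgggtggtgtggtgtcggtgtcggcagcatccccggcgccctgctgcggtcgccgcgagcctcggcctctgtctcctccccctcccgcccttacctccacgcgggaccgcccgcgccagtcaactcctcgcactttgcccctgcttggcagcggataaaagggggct
On either strand CCAAT was found in 14 of 19 fatty acid genes with an entry (73.7%) and in 39.7% of all symbols.

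Sterol synthesis genes had a large median difference and 1 call, and their levels varied between the replicates of 7F8. Of 22 genes of the mevalonate and sterol pathway, 1 was called higher, beside 0.288% of all genes called. Both 5G6 libraries were above both of 7F8 for 17 of them, beside 25.8% of all genes. The list's median difference was 1.35. HMGCS1, which makes the HMG-CoA that enters the pathway, measured 502 and 371 TPM with 5G6, 211 and 37.9 TPM with 7F8 and 62.9 and 48.2 TPM with DMSO. One 7F8 library lay near DMSO and the other several-fold above it, with both 5G6 libraries higher still. Its difference of 2.25 ± 0.59 (SE) was not called (limma adjusted p = 0.17). INSIG1, which retains SREBPs in the endoplasmic reticulum and is itself an SREBP target, was at 538 and 430.2 TPM with 5G6, 202 and 57.3 TPM with 7F8 and 38.6 and 31.95 TPM with DMSO (difference 2.15, limma adjusted p = 0.18). The lower of the 7F8 libraries was again replicate 2. SQLE, squalene epoxidase, differed by 1.03 with a 95% interval of -0.0033 to 2.06. None of 15 genes of SREBP control and sterol uptake was called, and their median was 0.51 (0.33 without 5G6 replicate 2). Over the 22 genes, 7F8 replicate 1 was above 7F8 replicate 2 by a median of 1.54 log2 units. Without replicate 1 of 7F8 the list's median difference between compounds was 2.04, and without its replicate 2 it was 0.60.

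Other called lipid genes lay outside these pathways. ABHD3, a phospholipase, measured 50.4 and 49.1 TPM with 5G6, 24.3 and 18.7 TPM with 7F8 and 15.5 and 14.3 TPM with DMSO, a difference of 1.19 ± 0.19 (SE) (limma adjusted p = 0.033). Among the 20 genes of triglyceride synthesis and lipid droplets, LPIN1 was called higher and G0S2 lower, beside 0.288% of all genes. The median of these 20 genes was 0.26 (−0.0084 without 5G6 replicate 2 and 0.13 with median-of-ratios scaling). G0S2 encodes an inhibitor of the triglyceride lipase ATGL and was at 20.8 and 14.2 TPM with 5G6, 108 and 66.03 TPM with 7F8 and 7.97 and 7.15 TPM with DMSO. It was highest in both 7F8 libraries and lowest in DMSO, with 5G6 between. The difference was -2.23 ± 0.32 (SE) log2 units (limma adjusted p = 0.033), and 7F8 exceeded DMSO by 3.32 (adjusted p = 0.001).

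**Figure D2:**
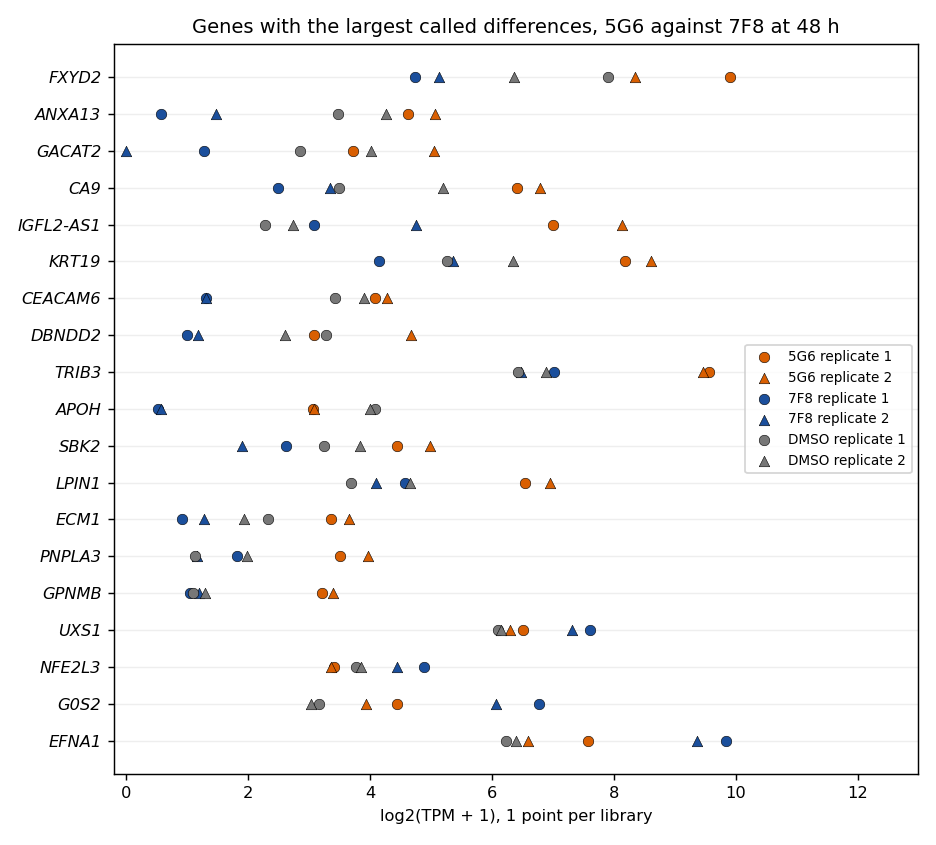
Log2(TPM + 1) in each library at 48 h (x axis) for the 15 named genes with the largest called increase with 5G6 and the 4 with a called decrease that passed a minimum level (rows); colours give the compound and shapes the replicate. The orange points of 5G6 lie to the right of the blue points of 7F8 in the upper 15 rows and to the left in the lower 4, while the grey points of DMSO lie near 7F8 for LPIN1, TRIB3, PNPLA3 and GPNMB and near 5G6 for CEACAM6.

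Epithelial and secretory genes held several of the largest differences. KRT19, a keratin of simple epithelia, measured 291 and 391 TPM with 5G6, 16.7 and 39.9 TPM with 7F8 and 37.4 and 80.7 TPM with DMSO. The gene spans chromosome 17, 41523617 to 41528308, - strand, in GRCh38. Both 5G6 libraries were several-fold above every other library, and 7F8 overlapped with DMSO. The difference of 3.65 ± 0.47 (SE) log2 units had a limma adjusted p of 0.033. CEACAM6, a cell-surface adhesion protein of epithelia, was at 15.9 and 18.3 TPM with 5G6, 1.47 and 1.48 TPM with 7F8 and 9.76 and 13.9 TPM with DMSO. In this gene 7F8 was the compound apart, with 5G6 just above DMSO. The difference was 2.87 ± 0.39 (SE) (limma adjusted p = 0.033), although reads shared with the similar CEACAM5 could be split between them. AGR2, a disulfide isomerase needed for mucin folding, measured 221 and 285 TPM with 5G6, 53.5 and 86.8 TPM with 7F8 and 240.1 and 452 TPM with DMSO. The 7F8 libraries again were lowest, and 5G6 overlapped with DMSO. It was higher with 5G6 than with 7F8 by 1.86 ± 0.31 (SE) (limma adjusted p = 0.04).

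CEACAM6 and AGR2 were the called members among 17 mucins and secretory genes, beside 0.288% of all genes. The median difference of these 17 genes was 0.90. Both 5G6 libraries were above both of 7F8 for 14 of them, beside 25.8% of all genes. KRT19 was the only call among 30 epithelial and mesenchymal markers, beside 0.288% of all genes. The median of the 30 was 0.13, with −0.13 without 7F8 replicate 1, −0.096 without 5G6 replicate 2, 0.22 without 5G6 replicate 1 and 0.02 with median-of-ratios scaling. Both 5G6 libraries were above both of 7F8 for 9 (30%, beside 25.8% of all genes) and below for 7 (23.3%, beside 10.4%). With median-of-ratios scaling these counts were 9 (beside 18.4%) and 9 (beside 19.0%). The differences ran from −1.37 to 3.65. KRT8 and KRT18, which form filaments together and are named here after their values were seen, were not called (limma adjusted p = 0.19 and 0.17). KRT8 was at 3427 and 3394 TPM with 5G6 and 1695 and 1767 TPM with 7F8. KRT18 was at 1717 and 2309.9 TPM with 5G6 and 719 and 1079 TPM with 7F8. These keratins have many processed pseudogenes that can share reads, and KRT8 and KRT18 are among the A549 markers whose sum was lower with 7F8. KRT7, another of those A549 markers, overlapped between the compounds, at 3082 and 1964 TPM with 5G6 and 2566 and 1739 TPM with 7F8. PKP3 (plakophilin 3), a desmosome protein, measured 60.2 and 54.2 TPM with 5G6, 24.5 and 25.7 TPM with 7F8 and 56.4 and 53.99 TPM with DMSO, so that 5G6 overlapped with DMSO. Its difference was 1.16 ± 0.17 (SE) (limma adjusted p = 0.033).

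FXYD2, a regulator of the sodium pump, had the largest difference of all called genes. It measured 963 and 324 TPM with 5G6, 25.6 and 34.03 TPM with 7F8 and 240.0 and 80.9 TPM with DMSO. Replicate 1 was several-fold above replicate 2 with 5G6 and with DMSO, but neither 5G6 library overlapped with 7F8. The difference was 4.20 ± 0.69 (SE) log2 units (limma adjusted p = 0.04). ANXA13, an annexin of epithelial membranes, was at 23.5 and 32.6 TPM with 5G6, 0.484 and 1.77 TPM with 7F8 and 10.2 and 18.2 TPM with DMSO, a difference of 3.82 ± 0.68 (SE) (limma adjusted p = 0.043). HAVCR1, also known as KIM-1, an epithelial phosphatidylserine receptor, stood at 169 and 212 TPM with 5G6, 66.7 and 50.6 TPM with 7F8 and 94.8 and 74.4 TPM with DMSO and differed by 1.69 ± 0.27 (SE) (limma adjusted p = 0.033). For ANXA13 the DMSO libraries lay between both compounds, and for HAVCR1 they lay between them as well.

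CA9, the membrane carbonic anhydrase that hypoxia induces, was at 83.8 and 109 TPM with 5G6, 4.60 and 9.17 TPM with 7F8 and 10.3 and 35.9 TPM with DMSO. Both 5G6 libraries were above all others, and both 7F8 libraries lay below DMSO. The difference was 3.68 ± 0.60 (SE) log2 units (limma adjusted p = 0.036). CA9 was the only called gene of 27 hypoxia-response genes outside glycolysis, beside 0.288% of all genes, and that list's median was 0.07. The sign of this median depended on single libraries, with 0.62 without 5G6 replicate 1, -0.31 without 5G6 replicate 2, -0.04 without 7F8 replicate 1 and 0.69 without 7F8 replicate 2, and it was -0.06 with median-of-ratios scaling. BNIP3, a mitophagy receptor of the same list, measured 246 and 386 TPM with 5G6 and 138 and 179 TPM with 7F8 and was not called (difference 0.97, limma adjusted p = 0.33). None of 23 genes of glycolysis and glucose transport was called. Both 5G6 libraries were above both of 7F8 for 16 of them (69.6%, beside 25.8% of all genes), with a median of 0.51. PGK1, a glycolytic kinase, came nearest with TPI1, at 1093 and 1407 TPM with 5G6 and 601 and 547 TPM with 7F8 (difference 1.11, limma adjusted p = 0.069).

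The CA9 promoter is printed because its well-known hypoxia element carries the core letters ACGTG. The RefSeq GRCh38.p14 window is chr9:35673678-35673977 on the plus strand, 5′ to 3′. Capitals mark the only match, which lies on the opposite strand, so that it reads CACGT here, and begins 18 bases before the start.
CA9: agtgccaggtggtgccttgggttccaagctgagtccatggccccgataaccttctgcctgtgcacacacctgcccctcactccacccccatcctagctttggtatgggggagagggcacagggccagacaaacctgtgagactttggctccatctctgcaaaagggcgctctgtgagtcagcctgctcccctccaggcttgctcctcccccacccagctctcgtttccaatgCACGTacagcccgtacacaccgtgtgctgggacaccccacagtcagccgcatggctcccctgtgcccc
These letters were found on either strand in 13 of 22 hypoxia genes (59.1%), in 14 of 21 glycolysis genes (66.7%) and in 24.9% of all symbols.

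Genes lower with 5G6 than with 7F8 were few. EFNA1, which encodes ephrin-A1, a membrane-anchored ligand of Eph receptors, measured 189 and 95.9 TPM with 5G6, 915 and 656 TPM with 7F8 and 74.4 and 83.2 TPM with DMSO. The gene spans chromosome 1, 155127873 to 155134910, + strand, in GRCh38. Both 7F8 libraries were several-fold above every 5G6 and DMSO library. The difference was -2.51 ± 0.44 (SE) log2 units (limma adjusted p = 0.043), and 7F8 exceeded DMSO by 3.28 (adjusted p = 0.0031). NFE2L3, a transcription factor of the NRF family, was at 9.64 and 9.23 TPM with 5G6, 28.5 and 20.7 TPM with 7F8 and 12.6 and 13.4 TPM with DMSO, a difference of -1.28 ± 0.20 (SE) (limma adjusted p = 0.033). UXS1, which makes UDP-xylose for glycosaminoglycans, stood at 90.2 and 77.8 TPM with 5G6, 195 and 159 TPM with 7F8 and 67.3 and 69.7 TPM with DMSO and differed by -1.06 ± 0.18 (SE) (limma adjusted p = 0.041). In all 3 genes the 7F8 libraries were the high ones, and G0S2 above had that pattern too. GPR84, a receptor for medium-chain fatty acids, was listed at 0 in the 5G6 and DMSO libraries and at 1.25 and 2.45 TPM with 7F8 (limma adjusted p = 0.043), which gives no fold.

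Inflammatory genes were mostly at lower levels with 5G6 too, but none was called. Of 33 genes of NF-kB, chemokines and cytokines, none was called, both 5G6 libraries were below both of 7F8 for 23 (10.4% over all genes) and above for 1, and the median difference was -0.83. The list's median against DMSO was 0.84 with 5G6 and 1.48 with 7F8. SOD2, an NF-kB target that encodes the superoxide dismutase of mitochondria, measured 1118 and 965 TPM with 5G6, 3308 and 2323 TPM with 7F8 and 229 and 184 TPM with DMSO. It was lowest in DMSO, intermediate with 5G6 and highest with 7F8, with no overlap. The difference was -1.42 ± 0.28 (SE) with a limma adjusted p of 0.069. IL1B, an inflammatory cytokine, was at 3.59 and 3.86 TPM with 5G6, 31.3 and 9.17 TPM with 7F8 and 0.937 and 0.760 TPM with DMSO, a difference of -1.94 (limma adjusted p = 0.13). Among 23 acute phase and epithelial defence genes none was called, and the median was -0.36, which was 0.16 without 7F8 replicate 1, -0.14 without 5G6 replicate 2 and -0.64 without 7F8 replicate 2. Complement C3 in that list differed by -1.97 and the elastase inhibitor PI3 by -2.33, at limma adjusted p-values of 0.095 and 0.11. The highest difference in that list was 1.4. The 50 interferon-stimulated genes had a median of −0.16, and this median turned sign with the library left out, from −1.03 without 7F8 replicate 2 and −0.89 without 5G6 replicate 1 to 0.52 without 7F8 replicate 1 and 0.58 without 5G6 replicate 2.

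The promoter of CXCL5, a neutrophil chemokine of the NF-kB list, shows the site letters of that list. It was chosen after its values were seen. CXCL5 measured 1153 and 1403 TPM with 5G6 and 2742 and 1872 TPM with 7F8 and was not called (difference -0.83, limma adjusted p = 0.14). The RefSeq GRCh38.p14 window is chr4:73998628-73998927 on the minus strand, 5′ to 3′, with the only match to GGANTTTCC in capitals, beginning 90 bases before the start.
CXCL5: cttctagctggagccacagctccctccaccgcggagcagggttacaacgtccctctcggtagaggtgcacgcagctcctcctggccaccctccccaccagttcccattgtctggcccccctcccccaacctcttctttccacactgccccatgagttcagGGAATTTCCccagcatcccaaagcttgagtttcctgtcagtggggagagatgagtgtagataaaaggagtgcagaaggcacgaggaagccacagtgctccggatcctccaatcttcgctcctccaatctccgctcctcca
Searched on both strands, 16 of 28 list members with an entry held these letters (57.1%), and 2.01% of all symbols did.

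**Figure D3:**
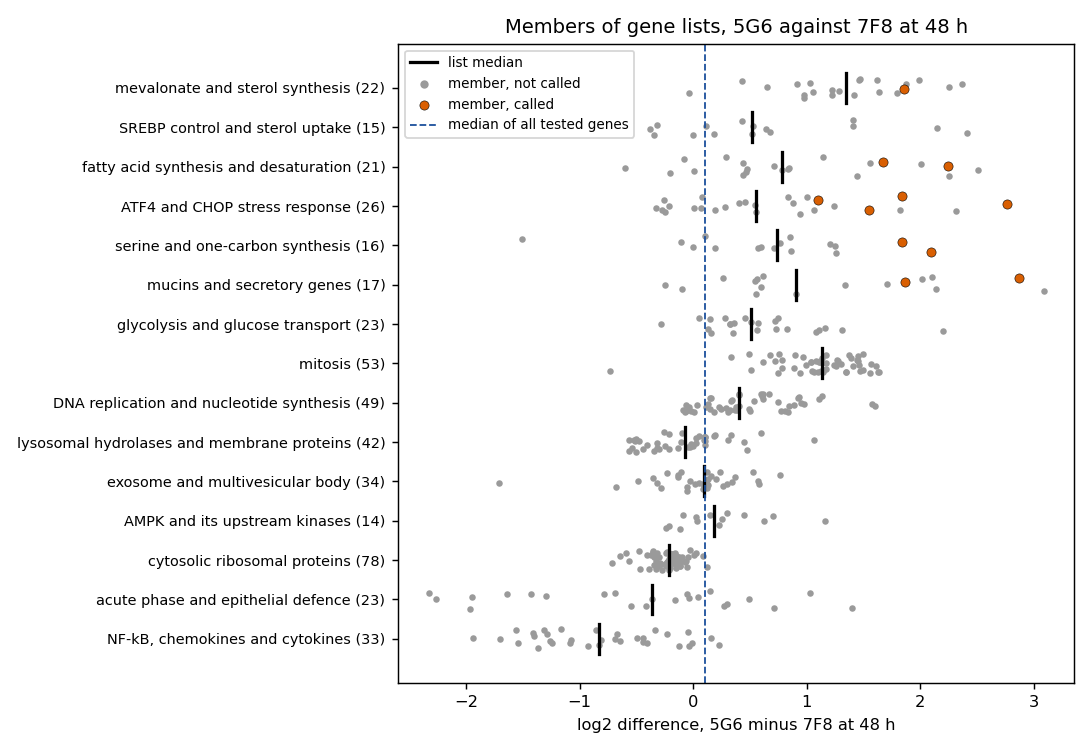
Log2 difference between 5G6 and 7F8 at 48 h (x axis) of every tested member of 15 gene lists (rows, number of members in brackets), with called members in orange, list medians as black bars and the median of all genes, 0.10, as a dashed line. Sterol synthesis (median 1.35) and mitosis (median 1.13) lie to the right without many calls, and the NF-kB list (median -0.83) lies to the left.

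Proliferation genes held no call between both compounds. Of 53 mitosis genes none was called, the median difference was 1.13, and both 5G6 libraries exceeded both of 7F8 for 18 (33.96%, beside 25.8% of all genes). Their medians against DMSO were −1.54 with 5G6 and −2.64 with 7F8. CENPA, the centromeric histone, was at 20.03 and 31.01 TPM with 5G6, 3.75 and 13.7 TPM with 7F8 and 65.7 and 57.1 TPM with DMSO. One 7F8 library was several-fold below the other, and DMSO was highest throughout. The list's median difference was 0.39 without 7F8 replicate 1, 1.96 without 7F8 replicate 2, 1.72 without 5G6 replicate 1 and 0.61 without 5G6 replicate 2. The 49 genes of DNA replication and nucleotide synthesis had a median of 0.40 and no call, with 0.15 without 7F8 replicate 1, 0.23 without 5G6 replicate 2 and 0.68 without 7F8 replicate 2. The 78 cytosolic ribosomal protein genes, many with near-identical processed copies, had a median of -0.21 and no call, and both 5G6 libraries were below both of 7F8 for 53 of them, beside 10.4% of all genes (55, beside 19.0%, with median-of-ratios scaling). RPL12, the member with the smallest p, measured 2404 and 2162 TPM with 5G6 and 3843 and 3324 TPM with 7F8 (difference -0.65, limma adjusted p = 0.093).

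The lists of exosome, AMPK and lysosomal hydrolase and membrane protein genes held no called member. CD63, whose values may include the overexpressed fusion, measured 2609 and 2441 TPM with 5G6, 1905 and 1524 TPM with 7F8 and 1902 and 2054 TPM with DMSO. Both 5G6 libraries were above the other 4, and 7F8 overlapped with DMSO. The difference of 0.57 had a 95% interval of 0.05 to 1.08 and was not called (limma adjusted p = 0.48). RAB27A, a GTPase of multivesicular body docking, differed by 0.15 (interval -0.59 to 0.90). Over 34 genes of exosomes and multivesicular bodies the median was 0.09. Both 5G6 libraries were above for 8 (23.5%, beside 25.8% of all genes) and below for 7 (20.6%, beside 10.4%). With median-of-ratios scaling the median was -0.04, with 4 above (11.8%, beside 18.4%) and 10 below (29.4%, beside 19.0%). Without 7F8 replicate 1 the median was 0.03. CD82, a tetraspanin, lay furthest down at 4.55 and 4.82 TPM with 5G6 and 26.4 and 11.6 TPM with 7F8 (difference -1.71, limma adjusted p = 0.19).

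The AMPK catalytic subunit genes differed by 0.15 for PRKAA1 (interval -0.45 to 0.75) and by 0.70 for PRKAA2 (interval -0.20 to 1.61). PRKAG2, a regulatory subunit, stood at 76.5 and 51.3 TPM with 5G6 and 24.5 and 30.9 TPM with 7F8, a difference of 1.16 with an interval of 0.58 to 1.74 and a limma adjusted p of 0.11. These intervals describe RNA and say nothing of kinase activity. The median of the 14 AMPK genes was 0.19, with 0.028 without 7F8 replicate 1, −0.025 without 5G6 replicate 2 and 0.060 with median-of-ratios scaling. That of 42 lysosomal genes was -0.07, with -0.15 without 5G6 replicate 2, -0.18 without 7F8 replicate 2 and -0.20 with median-of-ratios scaling. Both 5G6 libraries were below both of 7F8 for 16 of 42 (38.1%, beside 10.4% of all genes) and above for 8 (19.0%, beside 25.8%). With median-of-ratios scaling they were below for 22 (52.4%, beside 19.0%) and above for 5 (11.9%, beside 18.4%). In the FLCN, Rag GTPase and TFE list 1 of 18 genes was called, beside 0.288% of all genes. This was GPNMB, a lysosomal and melanosomal glycoprotein that TFE factors induce. It measured 8.27 and 9.52 TPM with 5G6, 1.06 and 1.30 TPM with 7F8 and 1.14 and 1.44 TPM with DMSO and differed by 2.18 ± 0.38 (SE) (limma adjusted p = 0.043). FLCN differed by 0.24 (interval -0.24 to 0.72), and NPC1, the lysosomal cholesterol exporter, by 0.64 (interval -0.13 to 1.41). ABCA1, TXNIP, CDKN1A and HMOX1 were not called either, at -1.02, -0.11, 0.27 and 1.40 log2 units.

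The remaining called genes, outside every list, ranged widely in function. AKR1A1, an aldo-keto reductase, measured 259 and 222 TPM with 5G6, 119 and 99.1 TPM with 7F8 and 81.7 and 89.4 TPM with DMSO, a difference of 1.14 ± 0.17 (SE) (limma adjusted p = 0.033). UPP1, uridine phosphorylase 1, stood at 123 and 90.4 TPM with 5G6, 49.3 and 39.3 TPM with 7F8 and 53.3 and 45.95 TPM with DMSO and differed by 1.24 ± 0.19 (SE) (limma adjusted p = 0.033). In both, the 5G6 libraries were higher than all others. APOH, a plasma glycoprotein, was highest in DMSO, at 7.36 and 7.46 TPM with 5G6, 0.433 and 0.481 TPM with 7F8 and 15.9 and 15.1 TPM with DMSO, with a difference between compounds of 2.53 ± 0.40 (SE) (limma adjusted p = 0.033). GACAT2, a noncoding RNA, was called higher at 12.1 and 32.2 TPM with 5G6 and 1.42 and 0 TPM with 7F8. IGFL2-AS1, GAS6-AS1, ELF3-AS1, TYMSOS and UPK1A-AS1 are antisense to other genes and uncertain, since the sources used here do not state whether counting used strand. UPK1A-AS1 was listed at 0 in the 7F8 and DMSO libraries and at 1.72 and 4.79 TPM with 5G6. LOC105379040 was likewise listed at 0 with 7F8 and at 1.797 and 1.589 TPM with 5G6. SBK2, ECM1, LOC102724094, FIBCD1, DBNDD2, APLN, TMC5, ERFE, KIF1A, KCP and SORBS3 were also called higher, with log2 differences from 1.21 for SORBS3 to 2.79 for DBNDD2. In all, 15 of the 46 called genes belonged to 1 or more of the 38 lists, and 10 lists held a called gene. GDF15 was the only call among 30 p53 targets, beside 0.288% of all genes. The median of these 30 was 0.31, with 0.19 with median-of-ratios scaling, 0.19 without 7F8 replicate 1, 0.52 without 5G6 replicate 1 and 0.51 without 7F8 replicate 2. The 17 lists not described so far, among them autophagy, fatty acid oxidation, the respiratory chain and the proteasome, held no call, and their medians ran from -0.19 for heat shock chaperones to 0.24 for cytosolic aminoacyl-tRNA synthetases. Those medians ran from −0.32 to 0.11 with median-of-ratios scaling, and from −0.28 to 0.60 when single libraries were left out.

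At 4 h the same contrast gave 1 called gene of 15958 (0.00627%), ELOVL6, at 42.04 and 35.97 TPM with 5G6 and 4.72 and 6.31 TPM with 7F8. Its log2 difference was 2.62 with a limma adjusted p of 0.021. TRIB3 was at 508 and 391 TPM with 5G6 and 129 and 39.8 TPM with 7F8 at that time. LPIN1 was at 72.2 and 86.4 TPM with 5G6 and 10.3 and 17.4 TPM with 7F8, and for both genes the compounds were already apart without overlap. ASNS was at 50.1 and 47.5 TPM with 5G6 and 54.3 and 47.2 TPM with 7F8 at 4 h. CA9 was at 7.98 and 9.71 TPM with 5G6 and 6.27 and 15.3 TPM with 7F8. GDF15 was at 235 and 270.0 TPM with 5G6 and 224 and 346 TPM with 7F8. The libraries of both compounds overlapped at 4 h for ASNS, CA9 and GDF15. Over the 41 genes higher at 48 h, both 5G6 libraries were above both of 7F8 at 4 h for 25, beside 33.6% of all tested genes, and for the 5 lower genes both were below for 3, beside 6.37%. The median 4 h difference of the 41 was 0.42 and that of all genes 0.22. In the test of 48 h minus 4 h, no gene was called (0%, with a smallest adjusted p of 0.73 in limma). An unadjusted p below 0.05 was found for 623 of the 15958 genes tested. Differences between the times were thus not shown for single genes.

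**Figure D4:**
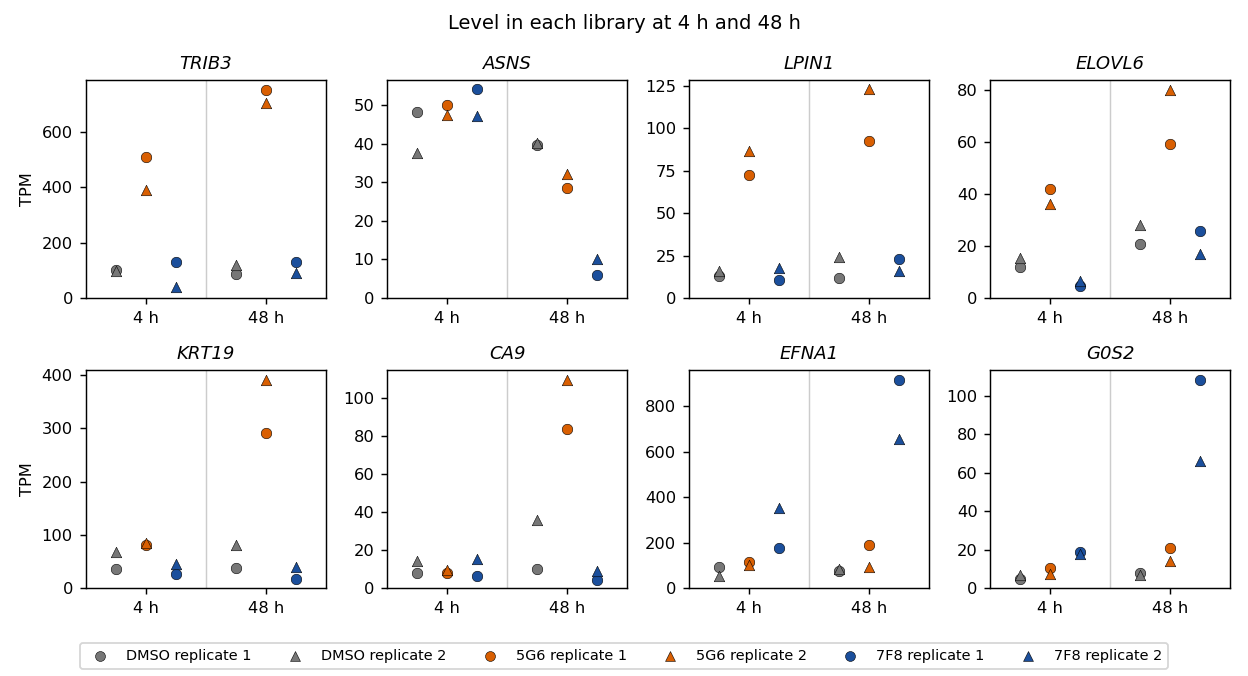
TPM in each library at 4 h and 48 h (x axis) for 8 called genes, each with its own y axis in TPM starting at 0; colours give the compound and shapes the replicate. The 5G6 points of TRIB3, LPIN1, ELOVL6 and KRT19 stand above 7F8 at both times. Those of ASNS and CA9 overlap with 7F8 at 4 h and stand well apart at 48 h, and EFNA1 and G0S2 are highest with 7F8.

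The number of libraries limits these calls. With 2 libraries per group the spread was estimated over all 8 groups of the series. These groups include another compound, 6D7, at 4 h and at 48 h. Mitochondrial genes, dropped before the fit, held 6.13 and 6.48% of TPM with 6D7 at 48 h, beside 28.0 to 32.3% in the 4 libraries compared. A fit on the 4 libraries alone called no gene, while 1292 of 15958 had an unadjusted p below 0.05 in it. The fit called 4 genes without 5G6 replicate 1, 1 without 5G6 replicate 2, 11 without 7F8 replicate 1 and 20 without 7F8 replicate 2.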

How the data were processed

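Poly(A) RNA of 16 A549 libraries (8 groups of 2) was sequenced. The deposited files hold TPM per gene, as the authors made them, beside FPKM and coverage, which served here only to estimate depth. The submitters' processing notes name STAR 2.6.1a, featureCounts 1.6.3, StringTie 2.0 and GRCh38, without roles. TPM was summed by gene name, mitochondrial genes (28.0 to 32.3% of TPM in the 4 libraries) were dropped, and the rest was rescaled to a total of 1000000. Genes at 1 TPM or more in at least 2 libraries were tested as log2(TPM + 1), which understates changes of low genes, with limma 3.58.1 (R 4.3.3; trend, empirical Bayes) over all 8 groups (8 residual degrees of freedom), and p-values were adjusted by Benjamini-Hochberg over all 15958 genes. A gene was called at an adjusted p below 0.05. On simulated data for this comparison, over 15958 genes, the fit called 25 of 100 genes changed 2-fold and 79 of 100 changed 4-fold. Of its 111 calls, 7 were unchanged genes. The simulated noise was independent between libraries, whereas deviations of same-numbered libraries correlated in the real data. Changed genes were drawn only from the more abundant ones, so these rates may not hold for the real libraries.

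The gene lists, members and alternatives were chosen with earlier results of these data known. Named genes were the 15 largest called differences each way (clone and LOC names left out), with a mean of at least 5 TPM in the higher group, up to 3 called members of each list (or the 2 with the smallest p), and a set of standard pathway genes. Of 46 called genes, 32 had a promoter entry in the RefSeq table, and motifs were counted only for lists in which at least 80% of genes had one. A called gene of the sterol list is not reported here by name. The p-values rest on the spread among these 16 libraries, part of which may be technical. Same-numbered replicates were not taken as pairs, since the labels give them no shared source. Alternatives were other scalings, pseudocounts, filters and sample sets, a replicate block and leaving out each library.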

Additional observations from a re-analysis of the deposited data

How the results depend on the processing

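The number of libraries, 2 per group, limits the precision, and the depth was 6.41 to 7.59 gigabases. All 46 called genes kept their direction in 14 alternatives, except that GPR84 was not tested in the TPM as deposited with mitochondrial genes kept. Most of these alternatives could not change a direction. The libraries of both compounds did not overlap at any of the 46 genes, so leaving out a library could not turn the sign. Other filters, sample sets, the trend and the block leave the difference itself unchanged, so only another scaling could have turned it. Called genes, higher and lower, numbered 15 and 2 with median-of-ratios scaling (17 of the 46), 45 and 16 with no filter (25 of the 46), 0 and 1 with the 48 h libraries alone, and 0 and 0 with the 4 libraries alone. Leaving out each library in turn gave 0 to 14 higher and 0 to 6 lower, of which 2, 0, 2 and 9 of the 46 remained without 5G6 replicate 1, 5G6 replicate 2, 7F8 replicate 1 and 7F8 replicate 2. Median-of-ratios scaling moved the median of all genes by −0.11, and the list medians became 1.22 for sterol synthesis, −0.96 for NF-kB and −0.34 for cytosolic ribosomal proteins. With the replicate block 146 and 35 genes were called, with all 46 among them, and with the block and median-of-ratios scaling 107 and 46. Of the named genes that were not called, 11 gained the call with the block. PRKAG2 was 1 of these (limma adjusted p = 0.043, and 0.10 with median-of-ratios scaling too). Deviations of same-numbered samples correlated at 0.0536 to 0.588 over 28 pairs of groups, and at 0.547 for 5G6 with 7F8 at 48 h. Differences that were not called changed sign when 1 library was left out: the difference of ABCA1 ran from −2.51 to 0.47 (0.14 without 7F8 replicate 2), the difference of RAB27A from −0.21 to 0.52 (−0.14 without 7F8 replicate 1), the difference of PRKAA1 from −0.11 to 0.41 (−0.047 without 5G6 replicate 2) and the difference of TXNIP from −1.08 to 0.86 (0.67 without 5G6 replicate 2). Of 1356 recomputed values of named genes 1145 kept direction and side of the threshold, 185 lost the call, 18 gained it and 8 changed sign. Only a called gene could lose the call, and most named genes were not called. With the 48 h libraries alone all 26 called named genes lost the call, and so they did with the 4 libraries alone. The cause of these changes was not tested.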

Other observations

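SNURF and SNRPN, overlapping genes on chromosome 15 that share a promoter region and transcripts, differed in opposite directions, and were chosen here after their values were seen. SNURF was at 0.354 and 0.0402 TPM with 5G6, 77.5 and 58.3 TPM with 7F8, and 24.0 and 39.0 TPM with DMSO at 48 h. SNRPN was at 88.4 and 55.6 TPM with 5G6, 23.1 and 19.1 TPM with 7F8, and 34.5 and 10.2 TPM with DMSO. The sum of both was 88.7 and 55.6 TPM with 5G6, 100.7 and 77.5 TPM with 7F8, and 58.5 and 49.2 TPM with DMSO, so that the compounds overlapped in the sum but not in either gene. At 4 h SNURF was listed at 0 in 1 library of 5G6 and measured 13.9 TPM in the other, beside 59.5 and 43.9 TPM with 7F8. Neither gene was called at 48 h (adjusted p = 0.14 for SNURF and 0.29 for SNRPN in limma).

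IGFBP1, a secreted binding protein of insulin-like growth factors, was higher than DMSO with either compound. It measured 852 and 1181 TPM with 5G6, 378 and 292 TPM with 7F8 and 40.2 and 139.6 TPM with DMSO at 48 h. Both 5G6 libraries exceeded both of 7F8, by 1.59 ± 0.46 (SE) log2 units, which was not called (limma adjusted p = 0.23). FTH1, the ferritin heavy chain, ran the other way at 15803 and 13642 TPM with 5G6, 24235 and 19750.0 TPM with 7F8 and 8439.9 and 9588 TPM with DMSO, and the difference of -0.58 ± 0.16 (SE) was not called either (limma adjusted p = 0.21).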
